A study of Homo sapiens with 21 samples.

Results

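The 500 widest of 30796 domains of trimethylated histone H3 lysine 4 (H3K4me3) in CAMA1 breast cancer cells were described. A reproducible region was the merged span of overlapping peaks of both H3K4me3 replicate lists, on chromosomes 1 to 22 and X. The 34260 such regions were joined into a domain wherever 1000 bp or less lay between them. The members were chosen by their width alone, so widths and H3K4me3 values are given as a description and were not tested. CAMA1 is an established line of oestrogen receptor-positive luminal breast cancer with an amplified FGFR1 gene, and all cells spent 48 h in medium without estradiol before collection. Chromatin immunoprecipitation and sequencing (ChIP-seq) was done for H3K4me3, acetylated H3 lysine 27 (H3K27ac), RNA polymerase II with phosphorylated serine 5 (Pol II S5P), the receptor FGFR1 and the forkhead factor FOXA1, with 2 lists each, in untransfected cells. FGFR1 was also profiled, again with 2 lists each, in cells collected 72 h after transfection with siNT or with siFOXA1. The siNT and siFOXA1 cells were the only pair of conditions, every group was the same cell line, and the Pol II S5P antibody is recorded as 4H8 against the Rpb1 C-terminal domain, a clone that is not specific to phosphorylated serine 5 alone. Pol II S5P is therefore used as the label of these lists. Peak names in both lists labelled FOXA1 read FOXA2, although the antibody recorded is against HNF-3α, which is FOXA1, and peak names in the untransfected FGFR1 lists carry other replicate numbers than the labels. The labels were followed, and these disagreements could not be settled from the files. No label says whether replicates were separate cultures, so the spread between them may be technical.

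H3K4me3 is laid down at active promoters by SET1 and MLL complexes and usually forms a narrow island over the first nucleosomes of a gene. In each cell type a small set of genes carries a much broader island that runs into the gene body, and these genes are known to be rich in regulators of cell identity. Polymerase phosphorylated on serine 5 has begun to transcribe, FOXA1 is a pioneer factor that opens enhancers in luminal cells, and FGFR1 is a receptor tyrosine kinase that has also been found in the nucleus of breast cancer cells.

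Among the 500 domains, 429 protein-coding genes had a start listed in the RefSeq promoter table (GRCh38.p14), which gives 250 bases before to 50 bases after each start. The sequences below are those of the widest domains' genes, 1 a domain, and of 3 genes that the results return to, each 5′ to 3′ on the gene's strand, with every CpG in capitals. They lie at chr20:53593790-53594089 (minus strand, ZNF217), chr7:105013955-105014254 (plus, KMT2E), chr9:14322338-14322637 (minus, NFIB), chr6:10419610-10419909 (minus, TFAP2A), chr14:37595200-37595499 (minus, FOXA1), chr10:8049604-8049903 (plus, GATA3, the most 5′ of its listed starts inside the domain), chr6:34556280-34556579 (minus, SPDEF) and chr19:12791236-12791535 (plus, JUNB). They are shown because they run from CpG-dense to CpG-poor although all lie in very wide domains.
ZNF217: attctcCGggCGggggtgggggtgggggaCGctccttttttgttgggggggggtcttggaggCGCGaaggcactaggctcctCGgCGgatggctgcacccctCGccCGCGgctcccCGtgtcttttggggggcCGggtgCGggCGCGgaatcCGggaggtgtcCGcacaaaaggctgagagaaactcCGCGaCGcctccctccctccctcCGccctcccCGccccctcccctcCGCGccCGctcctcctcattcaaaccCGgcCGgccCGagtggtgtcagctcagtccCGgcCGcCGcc
KMT2E: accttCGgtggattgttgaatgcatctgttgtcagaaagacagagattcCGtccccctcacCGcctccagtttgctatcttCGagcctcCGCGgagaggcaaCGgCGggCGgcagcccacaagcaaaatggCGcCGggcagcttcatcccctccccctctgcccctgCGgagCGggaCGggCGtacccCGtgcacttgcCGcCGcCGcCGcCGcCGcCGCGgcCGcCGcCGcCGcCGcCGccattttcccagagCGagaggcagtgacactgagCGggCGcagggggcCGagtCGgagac
NFIB: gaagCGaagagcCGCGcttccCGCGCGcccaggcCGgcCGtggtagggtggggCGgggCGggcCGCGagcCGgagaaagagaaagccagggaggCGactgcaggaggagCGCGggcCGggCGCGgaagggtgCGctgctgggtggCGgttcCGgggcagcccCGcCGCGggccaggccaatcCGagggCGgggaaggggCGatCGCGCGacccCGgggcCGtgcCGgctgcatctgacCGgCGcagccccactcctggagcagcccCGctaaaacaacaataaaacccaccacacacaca
TFAP2A: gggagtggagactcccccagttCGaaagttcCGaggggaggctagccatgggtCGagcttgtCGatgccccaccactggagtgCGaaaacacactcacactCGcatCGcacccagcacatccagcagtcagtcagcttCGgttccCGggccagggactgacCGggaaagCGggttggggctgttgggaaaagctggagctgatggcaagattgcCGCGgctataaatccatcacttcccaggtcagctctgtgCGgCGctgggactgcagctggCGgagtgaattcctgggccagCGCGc
FOXA1: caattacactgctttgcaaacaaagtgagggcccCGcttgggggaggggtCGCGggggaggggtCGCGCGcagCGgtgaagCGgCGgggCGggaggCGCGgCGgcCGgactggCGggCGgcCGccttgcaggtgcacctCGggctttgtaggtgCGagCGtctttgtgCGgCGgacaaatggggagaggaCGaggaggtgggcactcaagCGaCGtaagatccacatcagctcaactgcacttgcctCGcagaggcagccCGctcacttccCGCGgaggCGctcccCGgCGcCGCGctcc
GATA3: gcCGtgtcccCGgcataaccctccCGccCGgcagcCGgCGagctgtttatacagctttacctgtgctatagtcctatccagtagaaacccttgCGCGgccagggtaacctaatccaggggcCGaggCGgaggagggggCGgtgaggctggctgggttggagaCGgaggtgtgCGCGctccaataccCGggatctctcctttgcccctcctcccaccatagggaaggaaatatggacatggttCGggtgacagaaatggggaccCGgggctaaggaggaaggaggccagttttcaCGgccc
SPDEF: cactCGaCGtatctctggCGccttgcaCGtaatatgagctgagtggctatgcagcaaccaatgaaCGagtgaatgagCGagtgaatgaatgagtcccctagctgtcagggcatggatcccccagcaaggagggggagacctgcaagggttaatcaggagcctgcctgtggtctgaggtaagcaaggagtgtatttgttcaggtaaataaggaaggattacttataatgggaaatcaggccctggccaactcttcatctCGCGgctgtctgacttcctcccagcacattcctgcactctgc
JUNB: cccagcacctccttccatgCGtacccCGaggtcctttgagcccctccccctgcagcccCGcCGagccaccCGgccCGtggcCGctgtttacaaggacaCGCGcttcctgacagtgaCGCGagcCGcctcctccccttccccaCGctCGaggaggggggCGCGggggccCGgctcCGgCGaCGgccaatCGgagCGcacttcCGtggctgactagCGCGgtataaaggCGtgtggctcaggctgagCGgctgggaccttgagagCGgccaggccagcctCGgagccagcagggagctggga
The NFIB promoter held 37 CpG and was 73.7% G or C, whereas the SPDEF promoter held 8 CpG and was 52.0% G or C. The median over the 429 promoters was 27 CpG and 66.3% G or C. The 10230 listed promoters in narrower domains had the same medians, 27 CpG and 66.3%. The 5153 promoters in no domain had 5 CpG and 53.3%. Promoters in the widest domains were thus no richer in CpG than those in narrower ones. The letters TATAAA, read on both strands, were in 45 of the 429 promoters (10.5%, 95% Wilson interval 7.93 to 13.8), in 4.73% of those in narrower domains and in 9.58% of all 15812 promoters. TFAP2A, GATA3 and JUNB were among the 45. CCGGAAGT, the letters of a strong ETS-factor site, was in 5.13% of the promoters in the widest domains (3.41 to 7.64), in 9.003% of those in narrower domains and in 6.23% of all. TGTTTAC, a forkhead sequence, was in 6 of the 429 (1.399%), in 2.21% of those in narrower domains and in 2.64% of all. All 6, JUNB among them, were in the 264 promoters with a FOXA1 region within 1 kb (2.27%), and 0 were in the 165 others. In narrower domains TGTTTAC was in 4.67% of promoters with such a region and in 0.668% of those without. The split was therefore not particular to the widest domains. TGACTCA, the AP-1 sequence, was in 3.26%, 2.31% and 3.55%, in the same order. A match is a match of letters only.

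The 500 domains measured 5752 to 20050 bp, with a median of 6876 bp. Domains rebuilt from each list alone had medians of 6828 and 6520 bp over the same places, and 433 of the 500 were among the 500 widest in both single lists. Just inside the limit lay the domains of CRYBG1 (5755 bp), a place on chromosome 8 with no protein-coding start (5755 bp) and UBAC2 (5752 bp). Just outside lay a place on chromosome 21 with no such start (5751 bp), INSIG2 (5743 bp) and SCARB2 with FAM47E (5742 bp). The limit therefore fell on a slope without a step. A single region made up 214 domains, and joined gaps were 4.39% of the bases of all 500. A protein-coding gene start lay in 420 of the 500 (84.0%) against 36.9% of all domains, and 106 held the starts of several genes. In all 549 genes had a start inside, 2.75% of 19974, while 64.5% had one in any domain.

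**Figure D1:**
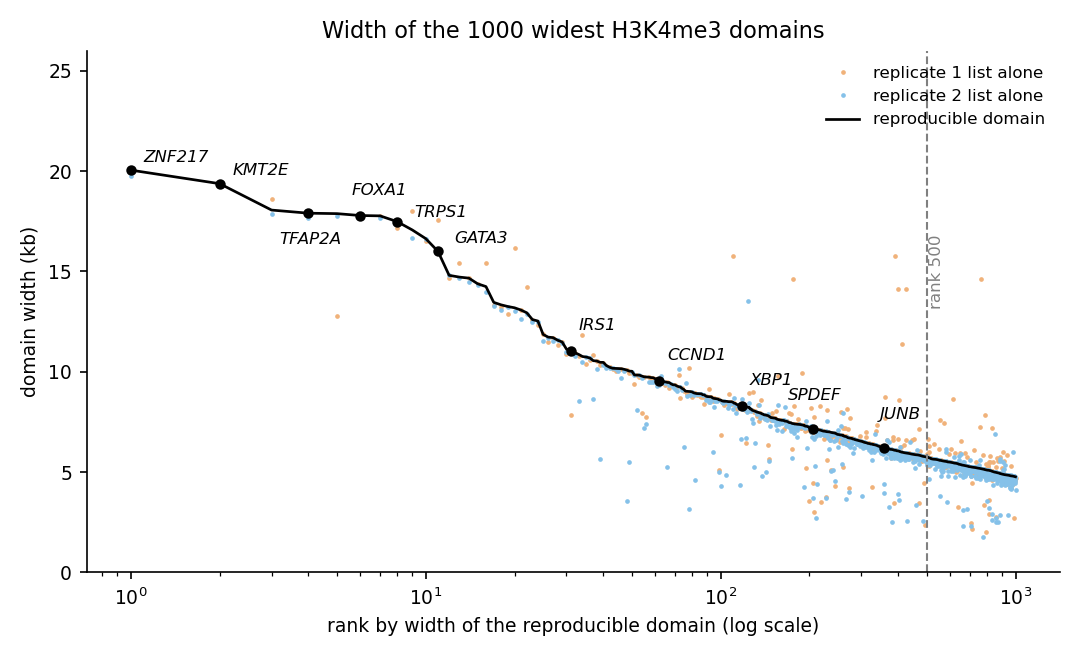
Width (kb, vertical axis) of the 1000 widest H3K4me3 domains by rank (log scale), with the width of the widest overlapping domain in each replicate list alone as points and the dashed line at rank 500. Widths fall from 20050 bp at ZNF217 to 5752 bp at rank 500 without a step, and most single-list points lie close to the line.

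The widest domain, 20050 bp at chr20:53577876-53597925, held the start of ZNF217, a zinc-finger factor gene often amplified in breast cancer. Its width was 19965 bp in replicate list 1 and 19772 bp in list 2. KMT2E, which encodes a PHD-finger reader of H3K4me3, followed with 19375 bp at chr7:105006086-105025460 (19375 and 19251 bp by list). NFIB, a nuclear factor I gene, had 18060 bp (18610 and 17857 bp), and TFAP2A, the AP-2 alpha gene, had 17904 bp (17904 and 17648 bp). The FOXA1 domain itself ranked 6, with 17788 bp at chr14:37583330-37601117 (17788 and 17714 bp), and also held a start of TTC6. TBX3, a T-box repressor with a role in mammary development, had 17771 bp and TRPS1, a GATA-type repressor, 17483 bp. IRX5, an Iroquois homeobox gene, had 17069 bp. The domain of SYCP2, FAM217B and PPP1R3D had 16636 bp, and that of GATA3, the luminal lineage factor, had 16002 bp at chr10:8049056-8065057 (17581 and 16002 bp by list). PARD6B, a cell polarity gene, had 14720 bp, IRF2BP2, a transcriptional corepressor gene, 14668 bp, and RUNX1, a core-binding factor gene, 14385 bp.

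The other two of the 15 widest domains held no protein-coding start and lay over abundant nuclear long non-coding RNA genes. MALAT1 (chr11:65491042-65508923) ranked 5 with 17882 bp, 12792 bp in list 1 and 17757 bp in list 2, the least even of the 15 between lists. It held 7 FGFR1 regions, 3 Pol II S5P regions and 9 FOXA1 regions. No other of the 500 held more FGFR1 regions. Its highest Pol II S5P peaks had fold enrichments of 60.4 and 53.6 over control in the 2 lists, its FGFR1 peaks 13.4 and 18.2. Every fold enrichment here is the authors' own value for a peak, and is used to describe or rank peaks within a list. NEAT1, the scaffold RNA of paraspeckles, had 14807 bp with Pol II S5P at 25.9 and 23.5 and FGFR1 at 10.0 and 14.4.

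All 15 gene lists were chosen with earlier results of these data known, and their counts are read against the 2.75% of all protein-coding genes that had a start in one of the 500 domains. Luminal transcription factor and receptor genes had the largest share, 13 of 27 (48.1%, 95% Wilson interval 30.7 to 66.0). Another 12 lay in narrower domains and 2, TFAP2B and ELF5, in none. Besides TFAP2A, FOXA1, TBX3, TRPS1 and GATA3, the 13 included GRHL2 (9013 bp), an epithelial grainyhead factor, XBP1 (8284 bp), a secretory stress factor, RARA (7483 bp), a retinoic acid receptor, SPDEF (7156 bp), a luminal ETS factor, ERBB4 (6877 bp), PGR (6469 bp), the progesterone receptor, and PRLR (5979 bp), the prolactin receptor. ESR1, which encodes the oestrogen receptor, fell short at rank 760 with 5177 bp. TFAP2C, at 5225 bp, and ELF3, at 5105 bp, ranked 730 and 798. For TBX3, TRPS1 and GRHL2, among others, the table lists no start, and either end of the gene was accepted. With listed starts alone the count was 9 of 20.

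A whole-domain view and a view of the start differed for these 13 genes. All 13 domains held a FOXA1 region, but 9 starts had one within 1 kb. Pol II S5P lay in 11 domains and at 9 starts, FGFR1 in 6 domains and at 4 starts. Of all 500 domains 81.2% held Pol II S5P, 59.2% FGFR1 and 92.6% FOXA1. Of the 549 starts in them 80.9% had Pol II S5P within 1 kb, 58.1% FGFR1 and 62.3% FOXA1. GATA3 was an example: its Pol II S5P peaks, 14.6 and 12.6 fold in the 2 lists, were in the domain but over 1 kb from the most 5′ start inside it. SPDEF had Pol II S5P peaks of 22.6 and 16.6 and FOXA1 peaks of 62.6 and 53.2 at its start. XBP1 had Pol II S5P at 19.9 and 18.6, FOXA1 at 3.55 and 2.999 and no reproducible FGFR1. PGR and ERBB4 had no reproducible Pol II S5P at the start, with a peak in list 1 alone of 4.27 and 3.83.

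Immediate early genes, which respond to growth factors within minutes, were next with 11 of 29 (37.9%, 22.7 to 56.0). They were ZFP36L2 (8909 bp), ZFP36 (8339 bp), DUSP1 (8145 bp), ZFP36L1 (7719 bp), IER2 (7372 bp), MYC (6971 bp), FOSL2 (6689 bp), KLF6 (6574 bp), JUNB (6209 bp), MCL1 (5943 bp) and JUN (5871 bp). The list spans messenger RNA decay factors (ZFP36 and relatives), a MAP kinase phosphatase (DUSP1), AP-1 subunits (FOSL2, JUNB, JUN) and a survival factor (MCL1). All 11 had Pol II S5P within 1 kb of the start, 9 had FOXA1 and 7 had FGFR1. A start is listed for 8 of the 11, and the others were placed by a gene end. The shares of all starts in the widest domains were 80.9%, 62.3% and 58.1%, in the same order. Their domains were less even between lists in some cases, with 8339 and 4348 bp for ZFP36.

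Oestrogen response genes had 8 of 22 (36.4%), some shared with other lists: IRS1 (11052 bp), CCND1 (9564 bp), SIAH2 (8528 bp), RARA, IGFBP4 (7089 bp), MYC, MYBL1 (6858 bp) and PGR. TFF1 and GREB1, widely used oestrogen targets, had domains of 2554 and 2227 bp. Luminal keratins and junction genes had 6 of 18 (33.3%), CDH1 (9705 bp), which encodes E-cadherin, KRT18 (7364 bp), KRT19 (7041 bp), CLDN4 (6704 bp), ESRP1 (6190 bp), an epithelial splicing factor, and JUP (5944 bp). All 6 had Pol II S5P and FGFR1 within 1 kb of the position taken, against 80.9% and 58.1% of all starts in the widest domains. A start is listed for 2 of the 6. The others were placed by a gene end with no strand, which need not be the start. CLDN4 measured 4193 and 4029 bp in the single lists, so its rank rests on the merged span. Heat shock and unfolded protein response genes had 6 of 25 (24.0%): XBP1, HSPD1 and HSPE1 (1 shared domain of 6427 bp), HSP90AA1 (5985 bp), HSPA8 (5877 bp) and DDIT3 (5869 bp). Tumour suppressors had 7 of 31 (22.6%), among them RUNX1, CDKN1B (13337 bp), ARID1A (8235 bp), MAP3K1 (7464 bp), ARID1B (6778 bp) and EP300 (6478 bp).

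Other lists had smaller shares. Ribosomal protein genes had 4 of 78 (5.13%), RPL8 (8428 bp), RPS2 (7610 bp), RPS18 (7525 bp) and RPL28 (5758 bp), although 77 of the 78 lay in some domain. Of 32 FGF receptor and ERK signalling genes, all in some domain, 2 were in the widest: CCND1 and SHC1 (8031 bp), an adaptor of receptor tyrosine kinases. FGFR1 itself had 3732 bp at rank 2235. Of 39 HOX genes 4 were in the widest, HOXC9 and HOXC10 (1 domain of 13080 bp), HOXC11 (6922 bp) and HOXC13 (5898 bp), all placed by gene ends, and 22 were in none. The 19 genes of H3K4 methyltransferase complexes had 0 in the widest and 18 in narrower domains, with KDM6A (4924 bp) and KMT2D (4919 bp) nearest. All 5 H3K4 demethylase genes found in the table were in narrower domains.

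The lists for other cell types were too short to set a share apart from the 2.75% of all genes, which lay inside each of their intervals. None of 21 basal and mesenchymal genes had a start in the 500 (interval 0 to 15.5%), and 12 lay in no domain at all. SNAI1, of this list, had a narrower domain of 1739 bp with Pol II S5P at 14.8 and 13.9 fold. Haematopoietic genes had 0 of 15, and transcription factors of other lineages 0 of 17. Of 12 fibroblast and endothelial genes COL3A1 (6515 bp) was the exception, placed by a gene end with no strand and without reproducible Pol II S5P. Of 10 luminal markers 9 were in a domain and 6 in the widest, while KRT8's listed start was in none. Of 10 basal or mesenchymal markers 4 were in a domain, 0 with Pol II S5P at the start.

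**Figure D2:**
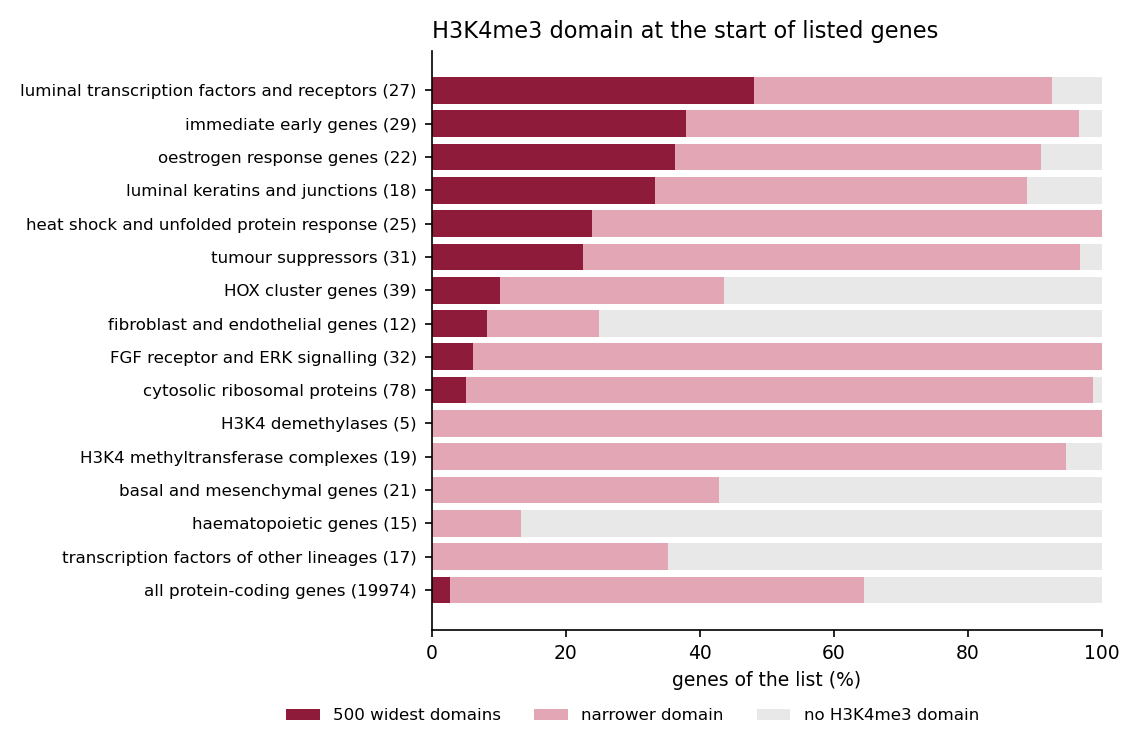
Share of each gene list (horizontal axis, %, number of genes in brackets) with a start in the 500 widest H3K4me3 domains (dark), a narrower domain (light) or none (grey). Luminal factors lead at 48.1% in the widest domains, and 5 lists have 0 there.

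Most of the widest domains held regions of the other targets. Pol II S5P regions lay in 406 of the 500 (81.2%, 77.5 to 84.4), against 25.9% of all domains. FGFR1 regions lay in 296 (59.2%, 54.8 to 63.4), against 13.7% of all. FOXA1 regions lay in 463 (92.6%, 89.97 to 94.6), against 58.1% of all, and H3K27ac in all 500, against 89.4%. Narrower domains with a gene start held Pol II S5P in 58.1%, FGFR1 in 28.9% and FOXA1 in 43.4%. FGFR1 and Pol II S5P went together: 288 domains held both and 8 held FGFR1 without Pol II S5P. This was not particular to the widest domains. Of starts with FGFR1 within 1 kb, 304 of 319 in the widest and 3333 of 3602 in narrower domains also had Pol II S5P. All 4 targets were present in 268 domains, FOXA1 was the only one of Pol II S5P, FGFR1 and FOXA1 in 77, and 9 domains held none of these. A wide domain meets more regions by its width alone, so covered bases were set beside these shares. FOXA1 covered 22.1% of the bases of the 500 domains, 10.2% in narrower domains with a gene start and 37.5% in those without. Pol II S5P covered 18.5% of the bases of all 500 domains and 15.8% in narrower domains with a start. FGFR1 covered 9.23% and 7.51%, and H3K27ac 97.2% and 86.9%. In the 420 of the 500 with a start, Pol II S5P covered 19.8%, FGFR1 10.05% and FOXA1 19.5%. Peak summits per kb ran the other way for Pol II S5P, with means of 0.253 ± 0.0529 in all 500 and 0.297 ± 0.0477 in narrower domains with a start (SD, n = 2). FGFR1 had 0.172 ± 0.0694 and 0.198 ± 0.108 and FOXA1 0.404 ± 0.00596 and 0.255 ± 0.0039 summits per kb. Within each list the Pol II S5P density was lower in the widest, 0.2905 against 0.3308 in list 1 and 0.2156 against 0.2633 in list 2. For FGFR1 the lists disagreed, with 0.1231 against 0.1219 in list 1 and 0.2212 against 0.2743 in list 2. In the 420 of the 500 with a start, the mean summits per kb were 0.266 for Pol II S5P, 0.186 for FGFR1 and 0.389 for FOXA1.

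Windows of 1 kb to each side of the gene start do not grow with the domain, so they set wide and narrow domains on the same footing. Within them Pol II S5P was at 80.9% of the 549 starts in the widest domains (77.4 to 83.9) and at 59.4% of 12335 starts in narrower domains. In single lists the widest-domain share was 90.7% and 80.3% (85.5 ± 7.34, SD, n = 2), and the difference was 18.7 and 20.3 points. FGFR1 was at 58.1% of the starts (53.9 to 62.2) and at 29.2% in narrower domains. Its single lists gave 57.7% and 82.7% (70.2 ± 17.7, SD, n = 2) with differences of 28.5 and 19.8 points. FOXA1 was at 62.3% (58.2 to 66.3) and 38.2%. Its lists gave 64.3% and 67.2% (65.8 ± 2.06, SD, n = 2) with differences of 20.4 and 22.3 points. The background over starts in any domain was 60.3% for Pol II S5P, 30.4% for FGFR1 and 39.3% for FOXA1, and 96.2% for H3K27ac, which was at 548 of the 549 starts. For Pol II S5P, FGFR1 and FOXA1 the difference from narrower domains was larger than the SD between lists, which was 1.15, 6.17 and 1.34 points. Starts that share a domain are not independent, so the intervals cover counting error only. When a peak had to share 50% of its length with a peak of the other list, in all targets, the differences were 12.2 points for Pol II S5P, 17.7 for FGFR1 and 21.2 for FOXA1. Among starts with Pol II S5P, FGFR1 was at 68.5% against 45.5% and FOXA1 at 63.7% against 47.0%. For FGFR1 the difference was 22.75 points in list 1 and 5.11 points in list 2. For FOXA1 it was 12.6 and 14.4 points.

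The contrast was with the mass of narrower domains and not with the nearest ones. Starts in the next 500 domains, 4766 to 5751 bp wide, had Pol II S5P at 78.8%, FGFR1 at 49.5% and FOXA1 at 59.4%. The widest 500 exceeded them by 2.10, 8.65 and 2.94 points. For FGFR1 the 2 lists disagreed, with 9.54 points in list 1 and -0.76 points in list 2, and for FOXA1 with -0.27 and 1.21 points. By width, Pol II S5P stayed between 78.3% and 83.7% from rank 1 to rank 4000, was at 72.5% from rank 4001 to 8000, at 41.8% from 8001 to 16000 and at 1.78% below. FOXA1 was at 75.7% of starts in ranks 1 to 100, 64.5% in 101 to 250 and 55.8% in 251 to 500. FGFR1 had 54.2%, 64.5% and 55.8% in the same ranks. Both were lower in every range after rank 1000 than in the range before it, down to 15.5% for FGFR1 and 26.8% for FOXA1 from 8001 to 16000.

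**Figure D3:**
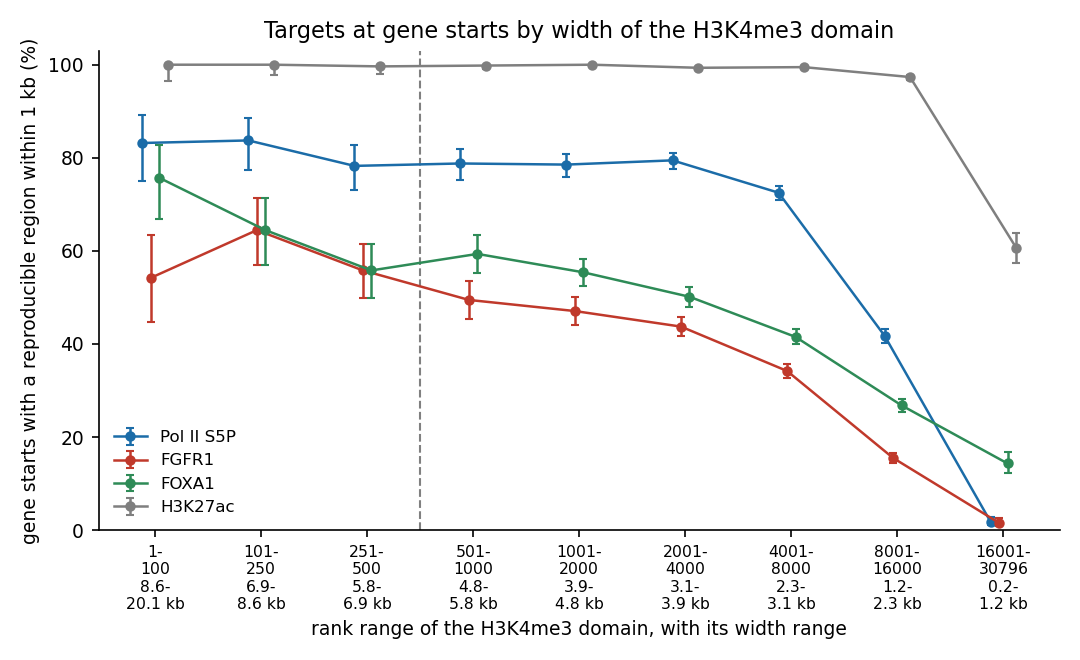
Share of gene starts (vertical axis, %) with a reproducible region within 1 kb, by rank range and width of the H3K4me3 domain, with bars for 95% Wilson intervals and the dashed line at rank 500. Pol II S5P is level near 80% to rank 4000, FOXA1 is highest at 75.7% in ranks 1 to 100, and H3K27ac is near 100% in all but the narrowest domains.

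The strongest peaks at starts in the 500 domains named a few genes for each target. CCND1, the cyclin D1 gene (domain chr11:69635971-69645534), had the highest mean rank of both Pol II S5P, 43.0 and 33.6 fold in the 2 lists, and FGFR1, 21.6 and 27.8 fold. CCND1 lies in a segment of chromosome 11 that is often amplified in such tumours, and its copy number here was not tested. TUBB4B, a tubulin gene, had Pol II S5P at 38.9 and 36.0 fold, and BRD2, a bromodomain reader gene, at 42.15 and 33.3. KRT19 had 39.1 and 33.6, and HNRNPH1, a splicing factor gene, 35.5 and 31.8. CCND1 and KRT19 have no listed start and were placed by a gene end with no strand, which need not be the start. For FGFR1, HOOK2 and JUNB shared a peak of 18.9 and 34.4 fold, ZBTB7A, a zinc-finger repressor gene, had 19.3 and 21.98, and MRPL14, a mitochondrial ribosome gene, 17.3 and 23.8. ZBTB7A's domain had no reproducible FOXA1 region. For FOXA1, CFAP276 and ELAPOR1 shared a peak of 79.7 and 72.5 fold, BCAR3, an anti-oestrogen resistance gene, had 71.4 and 65.2, SPDEF 62.6 and 53.2, and EFNA1, an ephrin ligand gene, 56.95 and 53.8. At BCAR3 FGFR1 had no peak in either list.

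Widest domains ran mostly into the gene. In the 254 that held 1 gene with a listed start, the median reach was 1362 bp upstream and 5404 bp downstream. The 7968 narrower ones reached 801 bp upstream and 1513 bp downstream. The downstream side was the longer one in 88.2% and 85.7%. For the 140 genes with a single listed start the reach was 1436 and 5340 bp. With a single listed start the downstream side was longer in 83.6% of the widest and in 85.3% of narrower domains. The order of these shares was the reverse of that above, so this share does not set the widest domains apart from narrower ones.

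Target peaks also lay farther from the start. Of FOXA1 summits in the 254 domains, 74.8% and 73.9% (74.4 ± 0.661, SD, n = 2) lay over 1 kb from the start, against a mean of 29.7% in narrower domains. For Pol II S5P the shares were 47.7% and 41.2% (44.5 ± 4.59), against 5.91%, and for FGFR1 33.0% and 42.5% (37.8 ± 6.71), against 5.20%. Room for such peaks grows with width. The median FOXA1 summit lay 2573 and 2514 bp from the start by list, while Pol II S5P summits lay 907 and 522.5 bp and FGFR1 summits 347.5 and 659 bp. Within 500 bp of the start lay 15.8% of FOXA1 summits, 45.1% of Pol II S5P summits and 51.8% of FGFR1 summits. FOXA1 summits fell in the joined gaps between H3K4me3 regions at 4.08% and 3.68% by list, close to the 4.39% of bases that are gaps. Pol II S5P summits did so at 0.544% and 0.489%.

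**Figure D4:**
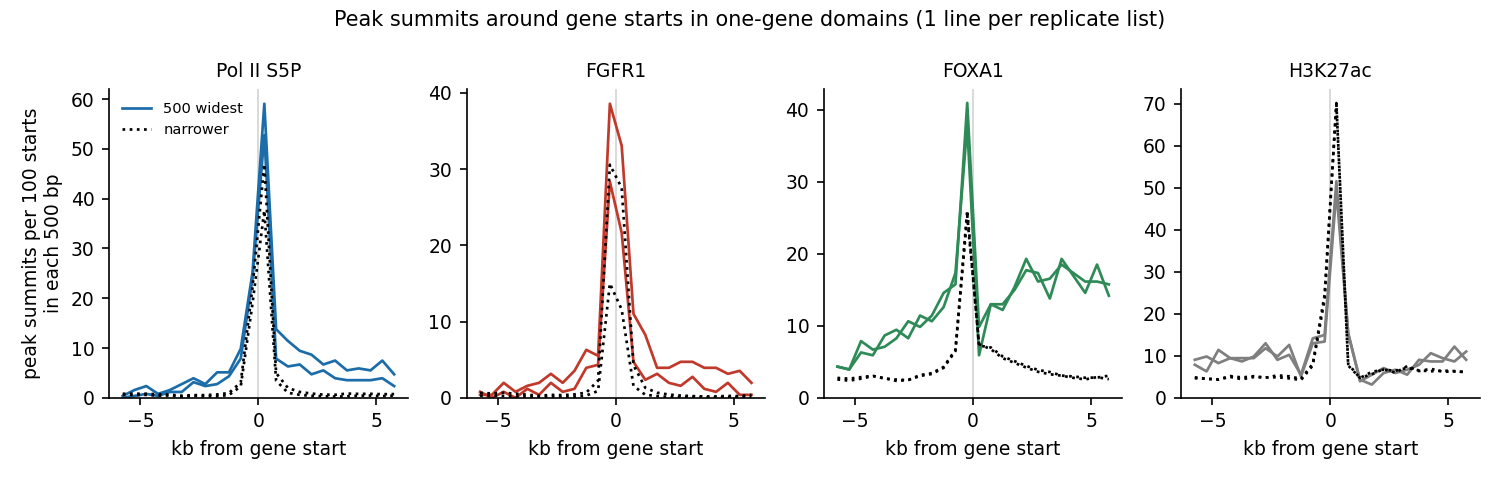
Peak summits per 100 gene starts in bins of 500 bp (vertical axis) by distance from the start in kb, positive into the gene, for 254 one-gene domains among the 500 widest (solid) and 7968 narrower ones (dotted), with 1 line per list. Pol II S5P, FGFR1 and FOXA1 all peak at the start in both. FOXA1 does so in the bin just upstream, at 37.8 and 40.9 by list in the widest domains. Farther downstream FOXA1 stays higher in the widest than in narrower domains.

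Domains without a protein-coding start numbered 80. Pol II S5P lay in 40 of them, FGFR1 in 19 and FOXA1 in 77, and FOXA1 covered 34.7% of their bases. The widest after MALAT1 and NEAT1 lay on chromosome 10, 1114329 bp from GATA3 and over the non-coding gene LOC101928272 (13190 bp), on chromosome 7 with ANKRD7 as the nearest coding gene (12942 bp), and on chromosome 8, 108472 bp from TRPS1 (12530 bp). The one near TRPS1 held 10 FOXA1 regions, which covered 68.1% of it, and no FGFR1 region. The chromosome 7 domain held 7 FOXA1 and 4 Pol II S5P regions.

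Reproducible Pol II S5P was missing from 94 of the 500 domains, 54 of them with a gene start. The widest were the LOC101928272 domain, ZMYND8 (10227 bp), a chromatin reader gene, SOCS6 (10125 bp), a cytokine signalling suppressor gene, BCL9L (10034 bp), a beta-catenin cofactor gene, and the domain of ALOXE3 and HES7 (9831 bp). Some had a peak in a single list, as ZMYND8 had 2 summits in list 1 and BCL9L 1. SOCS6 held no FOXA1 region, and ZMYND8 held 6.

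Wide H3K4me3 and wide H3K27ac coincided in part. Domains of H3K27ac built in the same way had their 500 widest at 26246 bp and over. Of the 500 widest H3K4me3 domains 131 (26.2%) overlapped these, which was 115 (23.0%) of the H3K27ac set. The share was 12.8% of the next 500 H3K4me3 domains, 1.497% of narrower ones with a gene start and 5.72% of all. Of the 13 luminal genes 10 were in the overlap: FOXA1, GATA3, GRHL2, PRLR, RARA, SPDEF, TBX3, TFAP2A, TRPS1 and XBP1.

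Chromosome 8, which carries FGFR1, held 35 of the 500, 2.46% of its domains against 1.62% overall. Chromosome 6 had 38 (2.24%), chromosome 1 had 58 (1.89%) and X had 7 (0.864%). Within 1 Mb of FGFR1 lay 5 of the 500, and within 1 Mb of CCND1 lay 2. Copy number was not measured in these lists, and its part in domain width was not tested.

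Fewer FGFR1 peaks lay in the 500 domains in siFOXA1 lists than in siNT lists. This comparison asks how much FGFR1 remained on this chromatin when FOXA1 was targeted. The lists hold no FOXA1 measurement after siRNA, so the depletion itself was not checked here. The siNT lists had 243 and 256 peaks with a summit in the domains (249.5 ± 9.19, SD, n = 2). The siFOXA1 lists had 168 and 138 (153 ± 21.2, SD, n = 2), 0.613 times as many. Both siFOXA1 lists were below both siNT lists, and an exact two-sided permutation test over the 4 lists gave p = 0.333, which is the smallest p that 2 against 2 allows. The siFOXA1 lists were also shorter as a whole, with 4332 and 5056 peaks against 6007 and 6594. Peaks of single lists were counted, and most did not recur. Of all siFOXA1 peaks 29.3% and 25.1% lay in reproducible regions, and of all siNT peaks 37.9% and 34.7%. As a share of its list, the domains held 3.88% and 2.73% of siFOXA1 peaks and 4.05% and 3.88% of siNT peaks, a ratio of 0.833. In narrower domains with a gene start the ratio of peak numbers was 0.445. Untransfected cells had 467 and 839 peaks in the domains, and their lists came from cells not taken through transfection.

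By domain, 106 held reproducible FGFR1 in siNT cells (4.36% of all domains did) and 60 in siFOXA1 cells (1.87% of all). Of these 56 were the same domains. In 26 of the 106 no siFOXA1 list had a peak, and 0 of the 60 lacked a peak in siNT lists. Over all domains 1342 held reproducible FGFR1 in siNT and 575 in siFOXA1 cells. The same overlaps over all domains are not given here, so those above are not read as particular to the widest. Chromosomes 8 and 11 held 24 of the 106 and 16 of the 60. Of all 500 domains, 35 (7.0%) lay on chromosome 8 and 18 (3.6%) on chromosome 11. The highest FGFR1 peak in the CCND1 domain was at 20.1 and 17.9 fold in siNT lists and 16.7 and 17.2 fold in siFOXA1 lists. The domain of JUNB and HOOK2 had 15.7 and 15.35 fold, then 14.8 and 15.6. These genes kept peaks of like height in all 4 lists. The EFNA1 domain had 12.55 and 10.96 fold in siNT lists and 6.11 and 5.32 in siFOXA1 lists, which do not overlap. The FOXA1 domain had FGFR1 peaks of 6.28 and 5.33 fold in siNT lists and none in siFOXA1 lists. Fold enrichment depends on each library's background, and these genes were picked after their values were seen, so the values were not tested.

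**Figure D5:**
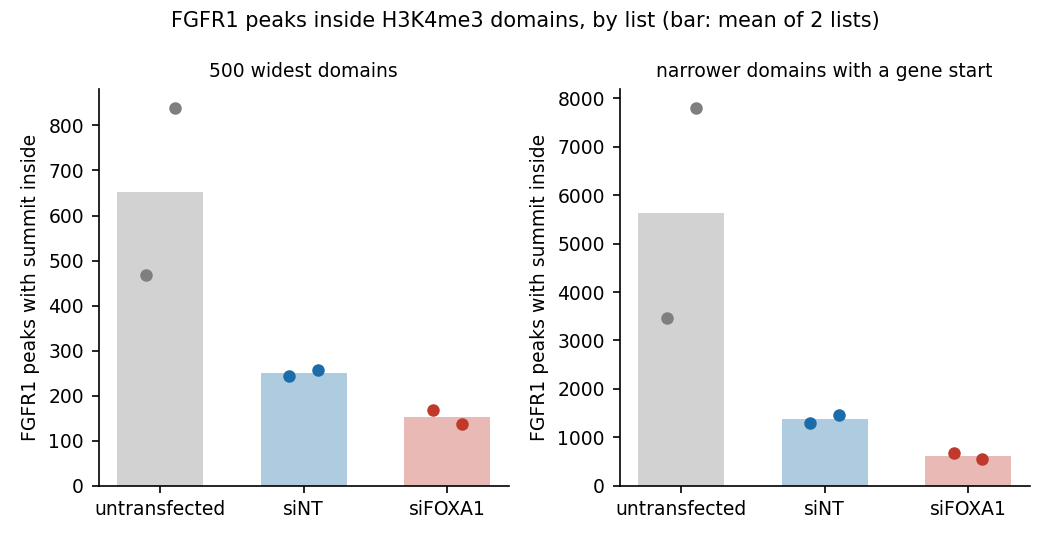
Number of FGFR1 peaks (vertical axis) with a summit inside the 500 widest H3K4me3 domains (left) and inside narrower domains with a gene start (right), with 1 point per list and bars for the mean of 2 lists. Both siFOXA1 points (168 and 138) lie below both siNT points (243 and 256) in the widest domains, and untransfected lists hold more than either.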

How the data were processed

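Peak lists of ChIP-seq in CAMA1 cells were used, 14 lists in 7 groups of 2; the 7 inputs were not used here. The submitters' processing notes name hg38, Bowtie2, SAMtools, Picard and MACS2, with roles and versions not given in the sources used here. Each list is 1 library, not a pool. The deposited lists give a fold enrichment over control (a ratio) for each peak, as the authors' peak caller wrote it. The authors' lists also give -log10 p and -log10 q values. They give no read counts, so depth is unknown, and lists of more deeply sequenced libraries can hold more peaks; list sizes ran from 4332 to 154358 peaks used.

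From these, reproducible regions were built as overlaps of 1 bp or more between both lists of a group, and domains by joining H3K4me3 regions 1000 bp apart or less. Gene starts came from RefSeq's GRCh38.p14 tables: 15812 of 19974 protein-coding genes (79.2%) have a listed start, and for several starts the most 5′ one in the widest domain was taken. For the other 4162 either gene end in a domain was accepted. Exons were not annotated. Members and the 15 gene lists were chosen with earlier results of these data known. Named genes were those in the 15 widest domains, up to 8 of each list, the 5 strongest starts per target, the 5 widest domains without Pol II S5P or without a coding start, and those next to the width limit; in addition, the other members of the luminal and immediate early lists, and FGFR1, ESR1, TFAP2C, ELF3, TFF1, GREB1, TFAP2B, ELF5, KRT8, KDM6A and KMT2D, were named after their values were seen. No test was made of region sets. Shares carry 95% Wilson intervals, single-list values a mean ± SD, and the siRNA comparison an exact permutation test. Domain building was tested on simulated peaks. Tools were Python 3.11.15, numpy 2.4.6, pandas 2.3.3, scipy 1.17.1 and matplotlib 3.10.9. Alternatives covered joining distance, number of domains, overlap, q threshold, window, width measure, comparison set, chromosomes 8 and 11, and each list left out. Those chosen after seeing the data were intersected regions, the gene-start subsets and all those of the luminal count. Some members of the gene lists are counted but not reported by name here.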

Additional observations from a re-analysis of the deposited data

How the results depend on the processing

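All differences at gene starts between the 500 widest and narrower domains kept their sign under every alternative run. The Pol II S5P difference of 21.5 points was 23.0 with joining at 500 bp, 23.7 for the 250 widest, 12.2 with 50% reciprocal overlap, 19.4 in 500 bp windows, 26.2 in 3 kb windows, 2.10 against the next 500, 29.0 over whole domains and 19.9 with intersected regions. The FGFR1 difference of 28.9 points was 17.7 with reciprocal overlap, 8.65 against the next 500 and 37.0 over whole domains. The FOXA1 difference of 24.05 points was 30.2 for the 250 widest, 21.2 with reciprocal overlap, 21.9 without chromosomes 8 and 11, 18.25 in 500 bp windows, 33.6 in 3 kb windows, 2.94 against the next 500, 48.5 over whole domains and 22.0 with intersected regions. The cause of these shifts was not tested. With 1 list of the target or of H3K4me3 left out they ran from 18.7 to 22.3 (Pol II S5P), 19.8 to 28.7 (FGFR1) and 20.4 to 24.04 (FOXA1) points, and FGFR1 was at 19.8 without its replicate 1. Genes with a single listed start gave 22.6, 29.6 and 23.1 points. The siFOXA1 to siNT ratio of 0.613 ran from 0.553 to 0.833 over all alternatives. Its permutation p could not fall under 0.333 with so few lists, so p does not tell the alternatives apart. With the replicate number as a block the ratio was 0.6105 (permutation p = 0.500, the smallest that 2 pairs allow). Same-numbered lists deviated with r = -0.0984 over 500 domains. With 2 lists a group, and domains that are not replicates, this cannot show whether the lists were paired. The luminal count of 13 ran from 10 to 17. Joining at 2 kb kept 321 of the 500 domains and joining at 500 bp kept 418. Peak lists carry no depth, so whether a missing peak comes from a shallow library was not tested.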
